A study of Mus musculus with 12 samples.

Results

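Nebulin is a giant protein that runs along the thin filament of skeletal muscle, with its N-terminus toward the pointed end and its C-terminus anchored in the Z-disc. It is built almost wholly of short actin-binding repeats, which in the middle of the protein are grouped into super-repeats, and its C-terminal end carries a serine-rich stretch and an SH3 domain that bind Z-disc proteins. Its gene, Neb, is known for alternative splicing in several stretches, of which the C-terminal, Z-disc stretch is the most variable, and mutations in it cause nemaline myopathy. Here the splicing of Neb was followed exon by exon, together with its transcript level, in a calf muscle (gastrocnemius) and a thigh muscle (quadriceps) of mice that flew in space or stayed on the ground.

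Every row assigned to Neb was taken from the 4 deposited splicing tables, which list skipped exons (SE, a cassette exon between 2 flanking exons) and mutually exclusive exons (MXE, a pair of exons scored against each other) in each muscle. This gave 69 of the 2423 events in the gastrocnemius and 68 of the 2416 events in the quadriceps. They are 69 distinct events, 33 SE and 36 MXE, of which 68 were listed in both muscles. After removal of events with a mean of 10 or fewer junction reads in a group, or with extreme inclusion in all samples, 68 and 67 remained, of 2118 and 2062 events in all. The expression table held 1 Neb row among 36008 genes.

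RNA came from the left gastrocnemius and quadriceps of 6 female mice, 30 weeks old at launch, and each muscle of each mouse gave 1 polyA library, so that 12 libraries formed 4 groups of 3. The flight mice (M11, M12 and M20) spent 9 weeks on the International Space Station, and the ground mice (M02, M03 and M08) were kept for as long in the same type of habitat hardware. All of them, ground controls included, belonged to a control arm given repeated injections of phosphate-buffered saline, and the muscles were dissected from carcasses that had been frozen and thawed. The labels give the strain as C57BL/6 and the study's methods as BALB/c, and no comparison used the strain. In the splicing tables the samples of a group are unnamed, so mice could be told apart only in the expression table. The 6 skeletal fiber markers were all detected and summed to between 53550 and 78842 TPM (a transcript level scaled for transcript length and for the total of the library) in a library. In whole muscle, fewer fibers of a type and less RNA per fiber cannot be told apart.

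Junction reads over all events numbered 777760 to 1246850 per sample, and those over Neb events 53029 to 81258. The median Neb event held 244.0 junction reads per sample in the gastrocnemius and 199.8 in the quadriceps, against 35.0 and 36.8 for all events. Reads are not marked by molecule, so these counts give counting error only. The third listed ground quadriceps sample had no read at 79 events, against 0 to 2 in the other samples, and none of these was a Neb event.

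Exons are numbered here by their place in the GENCODE transcript Neb-202, which has 157 exons and 22489 bases, and letters mark exons that lie between the numbered ones. Other numbering schemes are in use, the study's among them, so the same number, 127 and 128 included, need not name the same exon elsewhere. The gene covers chr2:52136647-52378474 on the minus strand of mm10. The events involve 36 alternative exons, of 42 to 312 bases, of which 5 are not in Neb-202. The length of 35 of the 36 is a multiple of 3, so that skipping them keeps the reading frame, and exon 3 with 65 bases is the exception. This is shared with the gene at large, since 151 of the 157 Neb-202 exons have such a length. The alternative exons fall into 2 main size classes, 13 exons of 105 bases, mostly in the super-repeat stretch, and 10 exons of 93 bases from exon 144 to exon 151. Of the 69 events, 49 lie from exon 145 on.

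The sequences below belong to the exons on which the results turn. They were taken from the GENCODE transcript sequences, on the coding strand, 5′ to 3′, and are given with mm10 coordinates. Exons 123 (chr2:52186012-52186116) and 123a (chr2:52185271-52185375) are the pair used in alternation in the super-repeat stretch. Capitals mark the 65 of 105 bases at which they differ.

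exon 123: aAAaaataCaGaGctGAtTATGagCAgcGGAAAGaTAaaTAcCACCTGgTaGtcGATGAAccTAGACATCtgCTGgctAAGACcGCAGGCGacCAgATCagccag

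exon 123a: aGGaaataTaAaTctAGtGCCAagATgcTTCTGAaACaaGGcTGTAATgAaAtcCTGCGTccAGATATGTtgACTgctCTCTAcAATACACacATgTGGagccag

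Exons 138 (chr2:52165167-52165277), 140 (chr2:52163937-52164050) and 143 (chr2:52161371-52161475) are cassette exons with many reads just before the C-terminal stretch. They are printed without capitals, as no comparison of bases was made for them.

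exon 138: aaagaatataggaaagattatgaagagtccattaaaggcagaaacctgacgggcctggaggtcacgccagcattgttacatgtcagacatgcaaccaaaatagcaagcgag

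exon 140: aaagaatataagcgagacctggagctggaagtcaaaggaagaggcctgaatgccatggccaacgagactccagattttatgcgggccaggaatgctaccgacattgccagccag

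exon 143: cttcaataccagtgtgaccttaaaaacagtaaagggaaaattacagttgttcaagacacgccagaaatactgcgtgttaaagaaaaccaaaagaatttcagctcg

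Exons 147a (chr2:52156355-52156447), 147c (chr2:52153683-52153775), 148 (chr2:52153056-52153148) and 150 (chr2:52150967-52151059) stand for the 93-base repeats of the C-terminal stretch. Capitals mark bases that differ from the most frequent base at that position among the 8 such exons from 146 to 151 with a sequence.

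exon 147a: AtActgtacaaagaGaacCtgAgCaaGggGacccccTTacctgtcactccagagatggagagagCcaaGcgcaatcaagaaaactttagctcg

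exon 147c: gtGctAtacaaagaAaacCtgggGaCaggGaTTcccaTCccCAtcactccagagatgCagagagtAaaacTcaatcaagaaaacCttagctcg

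exon 148: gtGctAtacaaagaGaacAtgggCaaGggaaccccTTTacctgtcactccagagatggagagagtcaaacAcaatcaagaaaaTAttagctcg

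exon 150: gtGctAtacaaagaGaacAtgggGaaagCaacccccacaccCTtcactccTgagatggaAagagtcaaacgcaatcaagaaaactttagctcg

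The 8 exons carry the same base at 56 of 93 positions, and identity within the 28 pairs ran from 74.2% to 87.1%. Reads of 50 bases can therefore look alike between them. Within single exons, no stretch of 49 bases was shared by 2 of these exons. Among all 35 alternative exons with a sequence, only exon 81 shared such a stretch with another Neb exon. A junction read is split between 2 exons and can hold fewer bases of each. This comparison therefore cannot show whether junction reads were placed at the right exon. Exon 147b is in no GENCODE transcript and has no sequence here.

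Inclusion was expressed as percent spliced in (PSI), the share of inclusion reads after each form's reads were divided by its effective length. In an MXE event it is the share of the upstream exon of the pair. Of the 36 MXE pairs, 28 lie together in at least 1 annotated transcript and 17 are spliced directly to each other there. For these, PSI can compare the reads of different junctions of the same transcripts rather than a choice between 2 exons. This does not hold for all of them. In at least 1 joined pair, described below, reads that include an exon are set against reads that skip it.

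Comparing flight with ground, a Neb event was called when its adjusted p was under 0.05 and its mean PSI differed by more than 5 points. In the gastrocnemius, 9 of 68 Neb events were called, 4 with higher and 5 with lower PSI after flight, against 1.42% of all events. In the quadriceps, 8 of 67 were called, 5 higher and 3 lower, against 0.921% of all events. Both tallies are from a quasi-binomial model of the junction reads, with the spread of each event moderated across all events by limma. The SE event of exon 123a and the MXE event of exons 123 and 123a were called in both muscles, and 15 events in at least 1. Events that share junctions repeat each other's reads, so these are not separate findings. The median absolute change of a Neb event was 4.60 points in the gastrocnemius and 5.66 points in the quadriceps, against 4.41 and 5.40 points over all events, which rest on fewer reads.

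The calls rest on the model and on single samples. With limma on the log ratio of the reads, 1 Neb event was called in the gastrocnemius (exons 120 and 121; 0.378% of all events), where 21 were under an unadjusted p of 0.05 (9.49% of all events). In the quadriceps limma called 0 Neb events and 0 of all, with 14 Neb events under an unadjusted p of 0.05 (7.61% of all events). Leaving out 1 listed sample changed the gastrocnemius count to 1, 2 and 2 (without the first, the second and the third ground sample) and to 0, 10 and 1 (without the first, the second and the third flight sample). The quadriceps count changed to 0, 5 and 0 (ground) and to 3, 0 and 0 (flight). In the same order, these fits called 10, 9, 11, 12, 33 and 12 of all 2118 events in the gastrocnemius. In the quadriceps they called 0, 5, 0, 7, 0 and 0 of all 2062. The values in each sample are therefore given ahead of each test.

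**Figure D1:**
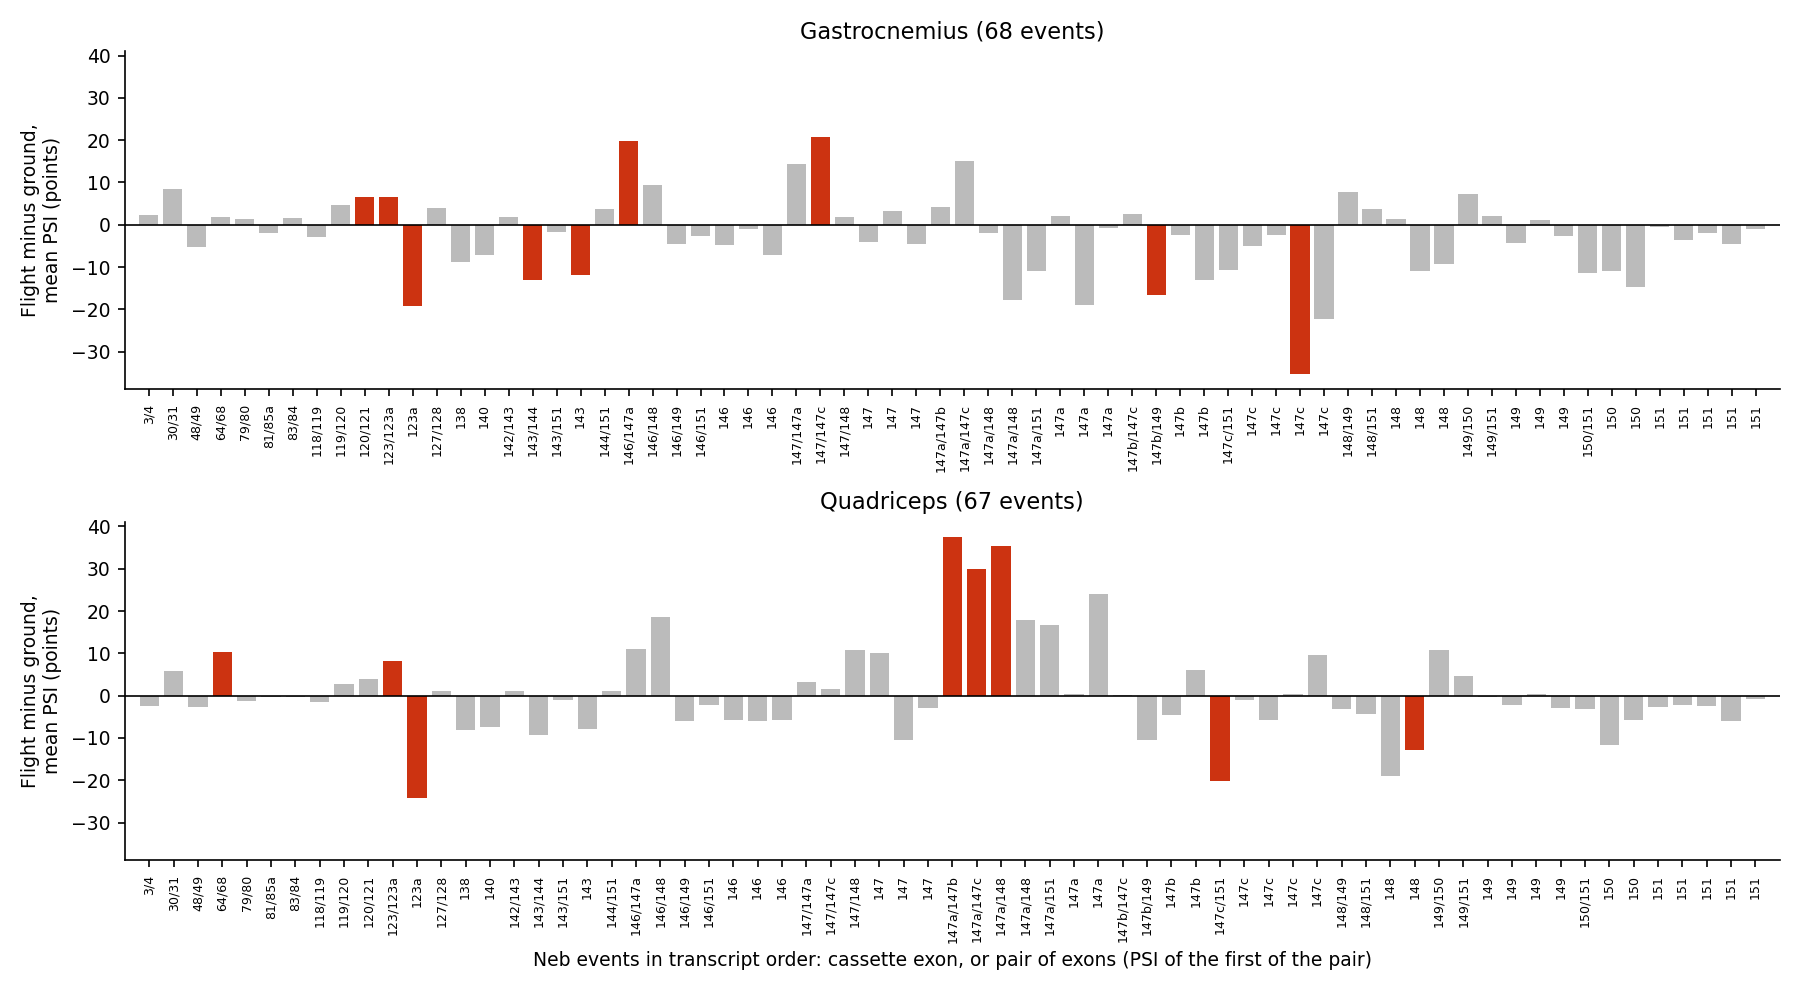
Change in PSI of each kept Neb event, as flight mean minus ground mean in percentage points, in transcript order along the gene (68 events in the gastrocnemius, 67 in the quadriceps). Red bars mark events called by the quasi-binomial model, 9 and 8; the widest changes lie among exons 146 to 151.

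Whether the samples of the 2 conditions overlapped needs no model. They did not overlap in 24 of 68 Neb events in the gastrocnemius (9 higher, 15 lower after flight), where 16.2% of all events showed this, 8.22% higher and 7.98% lower. In the quadriceps this was so for 16 of 67 (9 higher, 7 lower), against 12.8% of all events, 6.64% higher and 6.11% lower. In 10 of the 66 events kept in both muscles the samples were apart in the same direction in both, 7 lower and 3 higher, against 2.58% of 1858 events over the whole series. None was apart in opposite directions. The 7 lower events were the cassette exons 123a, 138, 140, 148 and 150 and the pairs 143/144 and 147b/149, and the 3 higher ones the pairs 30/31, 120/121 and 123/123a. Among all events apart within 1 muscle, the 5 widest changes in the gastrocnemius were exon 147c by 2 different flanks, the pairs 147/147c and 146/147a, and exon 123a. In the quadriceps they were exon 147a paired with 147b, 148 and 147c, exon 123a, and the pair 146/148.

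In the super-repeat stretch, exon 123 was scarce against exon 123a in every sample and less so after flight. In the gastrocnemius, exon 123 held 7.97, 9.38 and 7.15% of the pair in the ground samples and 12.6, 12.3 and 18.9% in the flight samples. The quadriceps values were 6.02, 11.4 and 5.74% on the ground and 13.7, 12.6 and 21.2% after flight. All flight samples lay above all ground samples of their muscle. The mean rose from 8.17% ± 1.1 to 14.6% ± 3.7 (SD, n = 3) in the gastrocnemius, a change in log2 odds of 0.97 ± 0.25 (SE; quasi-binomial adjusted p = 0.0431, limma 0.197). In the quadriceps it rose from 7.71% ± 3.2 to 15.8% ± 4.7 (SD, n = 3), a change in log2 odds of 1.02 ± 0.25 (SE; quasi-binomial adjusted p = 0.00642, limma 0.535). No annotated transcript holds both exons of this pair.

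The cassette event of exon 123a, which sets its junctions with exons 123 and 124 against the direct join of exon 123 to exon 124, showed the same reads from the other side. Reads from exon 123 to exon 123a could not be separated from those leaving exon 123a. Reads joining exon 122 to exon 123a are not counted in this event, so its PSI is not the share of transcripts that hold exon 123a. The PSI was 68.2, 66.6 and 71.9% in the ground gastrocnemius and 57.2, 54.8 and 37.2% after flight. In the quadriceps it was 71.0, 53.2 and 71.9% on the ground and 43.3, 46.3 and 33.9% after flight. The third flight sample was lowest in each muscle, and the second ground quadriceps sample lay well below the other ground samples. This PSI fell by 19.2 points in the gastrocnemius (quasi-binomial adjusted p = 0.00492, limma 0.271) and by 24.2 points in the quadriceps (quasi-binomial adjusted p = 2.5e-06, limma 0.535). The reads joining exon 123 directly to exon 124 were 141, 156 and 127 on the ground and 222, 155 and 349 after flight in the gastrocnemius, and 145, 343 and 149 against 427, 301 and 322 in the quadriceps. These reads enter both events, which are thus not independent. As an interaction, quadriceps effect minus gastrocnemius effect, this came to −5.0 points for exon 123a (quasi-binomial adjusted p = 0.972) and 1.69 points for the pair (0.991).

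**Figure D2:**
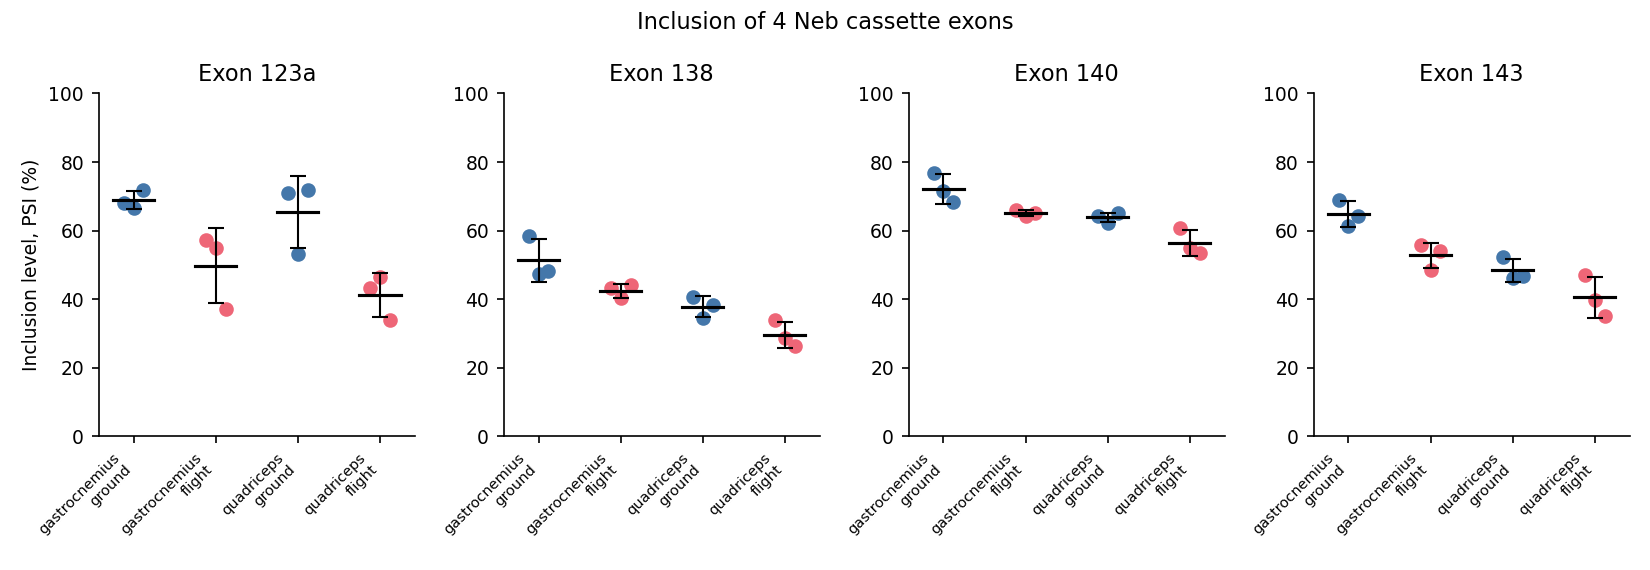
PSI in percent of the cassette exons 123a, 138, 140 and 143 in the 4 groups; points are samples, bars the mean and SD of 3. Means after flight lie below those on the ground in both muscles for all 4 exons, and the quadriceps means of exons 138, 140 and 143 lie below the gastrocnemius means of the same condition. The PSI of exon 123a leaves out reads from exon 122 and is not the share of transcripts that hold it.

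The pair numbered 127/128 in this scheme lies close by and is spliced in sequence in annotated transcripts. Exon 127 held 44.7, 43.3 and 43.8% of the reads in the ground gastrocnemius and 46.8, 48.3 and 48.4% after flight. Quadriceps samples held 42.1, 43.2 and 42.2% on the ground and 42.3, 43.4 and 44.7% after flight. The gastrocnemius samples were apart and those of the quadriceps overlapped, but the changes of 3.91 and 1.01 points were not called (quasi-binomial adjusted p = 0.580 and 0.938).

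Among the other super-repeat pairs, exon 120 gained against exon 121. Its share was 85.5, 83.7 and 84.8% in the ground gastrocnemius and 90.8, 91.7 and 91.4% after flight, a mean change from 84.7% ± 0.91 to 91.3% ± 0.42 (SD, n = 3). It was the Neb event called by both models in that muscle (quasi-binomial adjusted p = 0.0237, limma 0.0396). Quadriceps samples had 83.0, 85.4 and 87.0% on the ground and 88.0, 89.2 and 89.7% after flight, also apart, with a change of 3.85 points that was not called (quasi-binomial adjusted p = 0.409). Exons 120 and 121 are joined to each other in 4 annotated transcripts, so the pair can compare successive junctions of one transcript rather than a choice between exons. The reads of its single junctions could not be separated, and which of these holds was not tested.

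Exon 64 was set against exon 68, which lies 4 exons downstream and is 87.0% identical to it in sequence. In the quadriceps exon 64 held 75.3, 65.9 and 70.6% on the ground and 80.0, 84.4 and 78.8% after flight, a rise of 10.4 points (quasi-binomial adjusted p = 0.00224, limma 0.535). In the gastrocnemius it held 73.5, 71.4 and 71.7% and then 71.8, 72.7 and 77.7%, which overlap, with a change of 1.88 points (adjusted p = 0.793). The 2 changes were not shown to differ (interaction, quasi-binomial adjusted p = 0.445).

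Exon 30, set against exon 31, was apart in both muscles without being called. Its share was 57.8, 57.1 and 57.8% in the ground gastrocnemius and 65.8, 67.1 and 65.5% after flight, and 57.8, 59.7 and 56.6% against 61.7, 64.6 and 65.6% in the quadriceps. No samples overlapped in either muscle, with changes of 8.53 and 5.95 points (quasi-binomial adjusted p = 0.0656 and 0.409). Exons 30 and 31 are also joined to each other in annotated transcripts, so this share need not be a choice between them.

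Just before the C-terminal stretch, 3 cassette exons had lower mean inclusion after flight in both muscles. Exon 138 was included at 58.5, 47.4 and 48.1% in the ground gastrocnemius and 43.1, 40.2 and 44.1% after flight, and at 40.6, 34.4 and 38.4% against 33.7, 28.6 and 26.4% in the quadriceps. Exon 140 was included at 76.8, 71.5 and 68.2% against 65.9, 64.2 and 65.1% in the gastrocnemius, and at 64.2, 62.3 and 65.0% against 60.7, 54.8 and 53.4% in the quadriceps. Both exons were lower in every flight sample than in any ground sample of the same muscle, with differences of −8.90 and −8.22 points for exon 138 and −7.14 and −7.51 points for exon 140. None of these 4 differences was called (quasi-binomial adjusted p = 0.155 and 0.111 for exon 138, 0.291 and 0.327 for exon 140).

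Exon 143 was included at 68.9, 61.2 and 64.2% in the ground gastrocnemius and at 55.6, 48.6 and 54.1% after flight. The samples were apart, and mean inclusion fell from 64.8% ± 3.9 to 52.8% ± 3.7 (SD, n = 3; log2 odds −0.70 ± 0.17 SE; quasi-binomial adjusted p = 0.0270, limma 0.197). In the quadriceps it was included at 52.2, 46.1 and 46.7% on the ground and 46.9, 39.7 and 35.0% after flight, where the first flight sample overlapped the ground samples, and the difference of −7.83 points was not called (adjusted p = 0.189). The reads that skip it, joining exon 142 to exon 144, numbered 648, 792 and 720 in the ground gastrocnemius and 1212, 1057 and 1346 after flight, not scaled for depth. The MXE event of exons 143 and 144 uses the same skipping reads, since almost no read joined exon 144 to exon 152, and fell by 13.2 points in the gastrocnemius (quasi-binomial adjusted p = 0.00709).

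The C-terminal events were resolved into single junctions, since the deposited counts are sums over 2 junctions in most forms. Of 104 junctions used by these and the other Neb events listed, 53 could be solved in the gastrocnemius and 48 in the quadriceps from the sums, with a largest misfit of 0.462 reads. Exons 145 to 152 can be read as a chain, 145, 146, 147, 147a, 147b, 147c, 148, 149, 150, 151 and 152, but most reads leaving exon 145 took a shortcut. On the ground, a mean of 26.7% of them in the gastrocnemius and 17.0% in the quadriceps went on to exon 146, while 38.5% and 33.4% jumped to exon 149 and 26.3% and 40.6% to exon 152. Further shortcuts led from exon 145 to exon 151, from exon 149 to exons 151 and 152, and from exon 147 to exon 148. An MXE pair within this stretch therefore often sets the reads of the chain in one place against those of the chain in another. The same holds for cassette events in which one of the 2 inclusion junctions was nearly unused. Reads joining exon 147 to exon 147c numbered 0 to 2 per sample, those joining exon 145 to exon 148 numbered 0 to 3, and those joining exon 150 to exon 152 numbered 3 to 10. The PSI of exon 147c between exons 147 and 148 therefore sets the reads from 147c to 148 against those from 147 to 148. Likewise the PSI of exon 148 between exons 145 and 149 rests on the reads from 148 to 149, and that of exon 150 between exons 149 and 152 on the reads from 149 to 150. These values are not the share of transcripts that hold the exon. The junction reads themselves are plotted and described next.

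**Figure D3:**
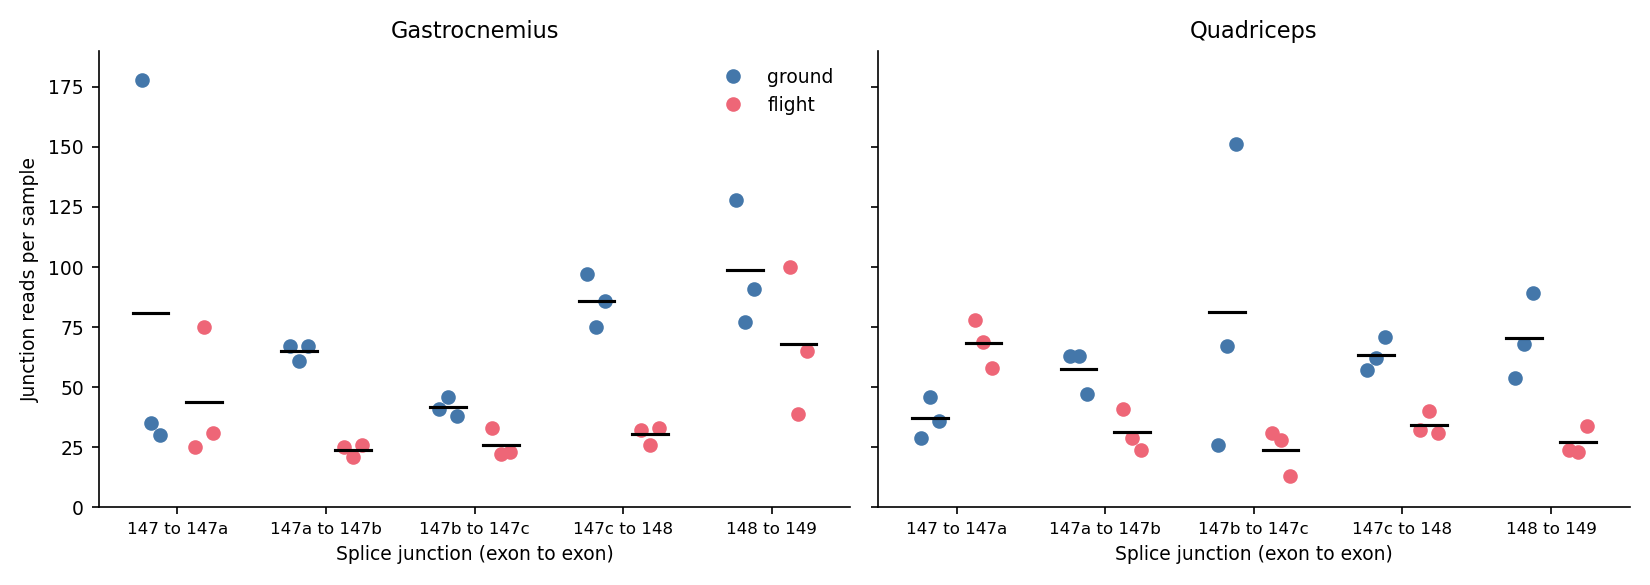
Reads on 5 successive junctions of the C-terminal chain in each sample, not scaled for depth; points are samples and black lines group means. Reads joining 147a to 147b and 147c to 148 are lower after flight in both muscles with no overlap, whereas those joining 147 to 147a are higher after flight in the quadriceps.

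The junction from exon 147c to exon 148 had 97, 75 and 86 reads in the ground gastrocnemius and 32, 26 and 33 after flight, and 57, 62 and 71 against 32, 40 and 31 in the quadriceps. The junction from exon 147a to exon 147b had 67, 61 and 67 reads against 25, 21 and 26 in the gastrocnemius, and 63, 63 and 47 against 41, 29 and 24 in the quadriceps. Both junctions were lower in every flight sample. The junction between them, from exon 147b to exon 147c, had 41, 46 and 38 reads against 33, 22 and 23 in the gastrocnemius, also apart, but 26, 67 and 151 against 31, 28 and 13 in the quadriceps, which overlap. The total of Neb junction reads per sample overlapped between the conditions. The junction counts are descriptions, not scaled for depth, and were not tested.

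Entry into exon 147a differed from exit. In the quadriceps, reads joining exon 147 to exon 147a numbered 29, 46 and 36 on the ground and 78, 69 and 58 after flight, so that the way in gained reads while the way out to exon 147b lost them. In the gastrocnemius the way in held 178, 35 and 30 reads on the ground and 25, 75 and 31 after flight, a spread within each group set by 1 sample. Reads of one exon's 2 ends thus moved apart, and what lies behind this was not tested.

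In the gastrocnemius, 4 of the 9 called events lie in this chain, as do 49 of the 69 distinct Neb events. Exon 147c between exons 147 and 148 was included at 78.9, 72.8 and 77.0% on the ground and 34.0, 54.2 and 34.7% after flight. This fall of 35.3 points in PSI was the largest of any Neb event in that muscle (log2 odds −2.38 ± 0.41 SE; quasi-binomial adjusted p = 4.0e-04, limma 0.118), on a mean of 77.5 reads per sample. The skipping reads behind it numbered 13, 14 and 13 on the ground and 31, 11 and 32 after flight. The second flight sample did not share their increase, while the inclusion reads fell in all 3. Between the short form of exon 146 and exon 148, the PSI of exon 147c, which rests on the same reads from 147c to 148, was 82.9, 90.4 and 79.8% on the ground and 62.3, 61.9 and 62.3% after flight, apart but not called (quasi-binomial adjusted p = 0.114). The other 3 called events of the chain were the pair 147b/149, from 28.4, 27.6 and 28.5% to 9.19, 12.1 and 13.0%, the pair 147/147c, from 52.5, 52.2 and 51.7% to 77.6, 68.7 and 72.3%, and the pair 146/147a, from 67.9, 68.6 and 52.1% to 83.4, 83.8 and 81.0% (quasi-binomial adjusted p = 8.1e-04, 0.00344 and 0.00907). In each of these the reads of exon 147a, 147b or 147c were the ones that became fewer.

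In the quadriceps, 5 of the 8 called events lie there. Exon 147a rose against exon 147b from 48.3, 40.4 and 19.3% to 69.0, 69.7 and 81.7%, against exon 148 from 29.0, 38.0 and 25.5% to 72.2, 66.3 and 60.4%, and against exon 147c from 35.2, 41.8 and 33.6% to 72.2, 63.3 and 65.2%. All 3 events count the same entry junction of exon 147a, and the group means rose from 36.0 to 73.5%, from 30.8 to 66.3% and from 36.9 to 66.9% (quasi-binomial adjusted p = 3.6e-07, 1.6e-05 and 0.00224). Limma called none of them, with an adjusted p of 0.535 for each. Exon 148 between exons 145 and 149 was included at 16.8, 15.8 and 27.4% on the ground and 7.32, 5.79 and 8.08% after flight, a fall of 12.9 points (quasi-binomial adjusted p = 0.00224, limma 0.535). The reads from exon 148 to exon 149 behind it numbered 54, 68 and 89 on the ground and 24, 23 and 34 after flight. The same event went from 29.0, 17.3 and 22.7% to 17.2, 9.22 and 14.5% in the gastrocnemius, just apart and not called (adjusted p = 0.117). The pair 147c/151 was called with a fall of 20.1 points although its samples overlapped (24.5, 39.8 and 64.5% against 21.5, 33.7 and 13.3%), with the third ground sample far above the others.

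The PSI of exon 147c between exons 147 and 148 overlapped in the quadriceps, at 62.6, 82.1 and 68.9% on the ground and 72.7, 62.5 and 79.5% after flight. There the reads from 147c to 148 were lower in every flight sample, as given above, and those from 147 to 148 numbered 17, 7 and 16 against 6, 12 and 4. The difference in the flight effect was 35.6 points with an unadjusted p of 0.00222 and an adjusted p of 0.227 in the quasi-binomial model, so the muscles were not shown to differ. For exon 147a against exon 148 it was 37.4 points (adjusted p = 0.107). Of the 66 Neb events kept in both muscles, 0 were called for a difference in the flight effect, against 0.323% of 1858 events in all. Limma also called 0, against 0.161% of all events, and 10 Neb events in the quasi-binomial model and 8 in limma were under an unadjusted p of 0.05, against 8.18% and 6.67% of all events. Without the second or the third ground gastrocnemius sample 2 and 1 were called, and without the second flight gastrocnemius sample 5. Of all 1858 events, these fits called 9, 6 and 14.

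**Figure D4:**
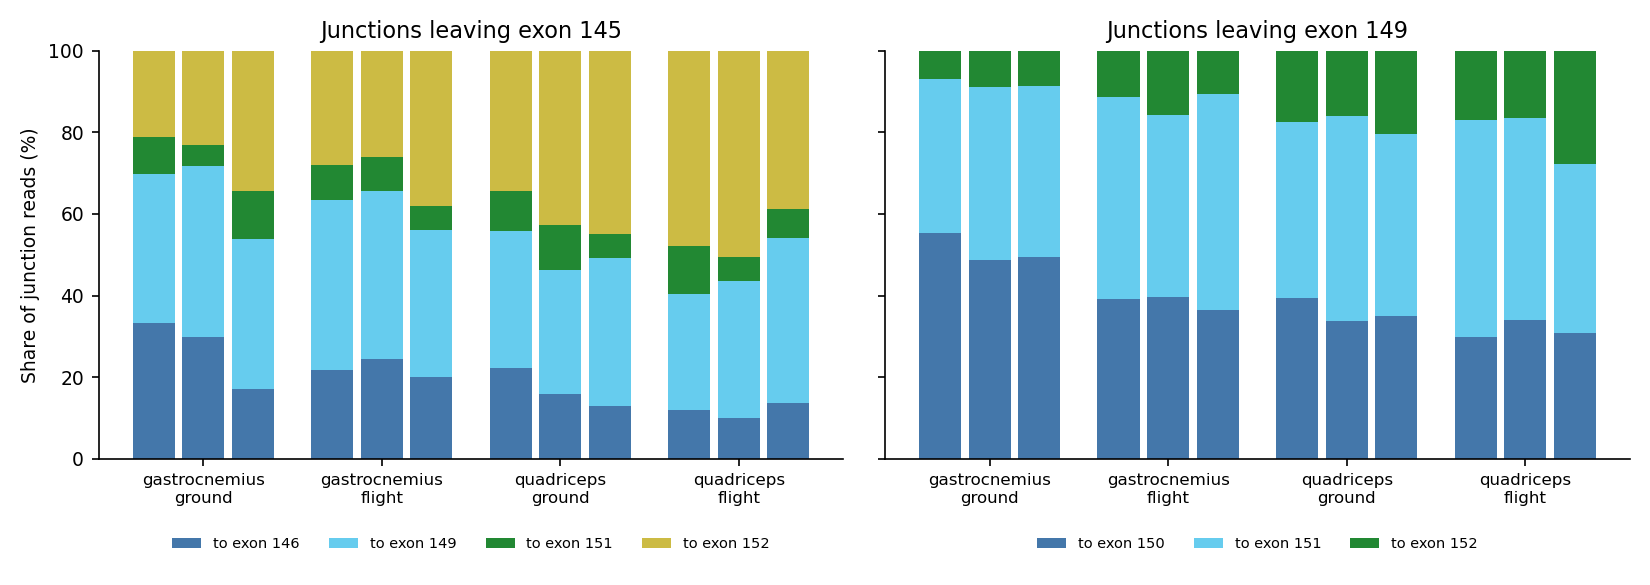
Share in percent of the solved junction reads leaving exon 145 (left) and exon 149 (right) by their target exon; each bar is 1 sample. The share of exon 149 reads going on to exon 150 is lower in all flight gastrocnemius samples (36.5 to 39.5%) than in the ground ones (48.7 to 55.4%).

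Reads leaving exon 149 went on to exon 150, exon 151 or exon 152. In the gastrocnemius, the share continuing to exon 150 was 55.4, 48.7 and 49.5% on the ground and 39.2, 39.5 and 36.5% after flight, the share jumping to exon 151 was 37.6, 42.5 and 41.8% against 49.4, 44.8 and 52.9%, and the share jumping to exon 152 was 6.96, 8.78 and 8.75% against 11.4, 15.6 and 10.6%. In the quadriceps the share continuing to exon 150 was 39.3, 33.9 and 35.0% against 29.8, 34.0 and 30.9%, and that jumping to exon 151 was 43.3, 50.1 and 44.5% against 53.2, 49.4 and 41.2%. For each of these targets the gastrocnemius samples were apart and the quadriceps samples overlapped. From exon 145, the share jumping straight to exon 152, which leaves out the whole stretch, was 21.3, 23.1 and 34.5% on the ground and 28.1, 26.0 and 38.0% after flight in the gastrocnemius, and 34.3, 42.6 and 44.9% against 47.8, 50.5 and 38.7% in the quadriceps. These samples overlapped in both muscles. The shares are descriptions, and the reads counted from exon 145 to exon 146 are an upper bound.

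The muscles differed from each other at several of the same exons. On the ground, 11 of 66 Neb events were called between quadriceps and gastrocnemius, 3 higher and 8 lower in the quadriceps, against 7.37% of all events, and after flight 18 were called (7 higher, 11 lower), against 7.86%. Both counts are from the quasi-binomial model, limma called 6 and 4 (6.46% and 5.54% of all events), and 8 Neb events were called in both conditions by the quasi-binomial model, against 5.17% of all events. Each mouse gave both muscles, but as samples are unnamed in the splicing tables, these tests ignore the pairing. Without the first ground gastrocnemius sample 5 were called on the ground, and without the third ground quadriceps sample 7 (103 and 118 of all 1858 events). After flight the count was 5 and 11 without the first and the third flight gastrocnemius sample, and 10 and 10 without the second and the third flight quadriceps sample. Of all events, these 4 fits called 112, 131, 106 and 131.

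The cassette exons 138, 143 and 150 all had lower PSI in the quadriceps. On the ground, exon 138 was included at 37.8% ± 3.1 in the quadriceps and 51.3% ± 6.2 in the gastrocnemius (SD, n = 3), lower by 13.6 points (quasi-binomial adjusted p = 7.5e-04, limma 0.0210). Exon 143 was included at 48.4% ± 3.4 against 64.8% ± 3.9, lower by 16.4 points (quasi-binomial adjusted p = 2.4e-04, limma 0.00593). The PSI of exon 150 between exons 149 and 152 was 54.1, 52.0 and 48.0% against 80.1, 74.4 and 74.7%, lower by 25.1 points (quasi-binomial adjusted p = 2.3e-04, limma 0.00632). None of the ground samples of the 2 muscles overlapped in these PSI values. That of exon 150 counts neither the reads from 149 to 151 nor those from 150 to 151. The latter numbered 172, 266 and 331 in the ground quadriceps and 285, 250 and 249 in the ground gastrocnemius, not scaled for depth, and overlapped. After flight the PSI differences were −12.9 points for exon 138, −12.2 for exon 143 and −16.1 for exon 150 (quasi-binomial adjusted p = 7.2e-04, 0.00352 and 0.0264). The cassette event of exon 123a had a ground difference of −3.54 points that was not called (adjusted p = 0.697). After flight its mean was 41.2% in the quadriceps and 49.7% in the gastrocnemius, with overlapping samples. At the N-terminal end, exon 3 held 30.2, 32.2 and 31.4% against exon 4 in the ground gastrocnemius and 27.1, 28.4 and 24.2% in the ground quadriceps. After flight it held 31.3, 34.8 and 34.4% and 23.9, 23.2 and 25.1%, a gap of −9.44 points that was called (quasi-binomial adjusted p = 5.4e-04, limma 0.00341). Exons 3 and 4 are joined to each other in annotated transcripts, so this PSI can compare junctions of the same transcripts rather than a choice between the exons.

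Fiber-type markers moved beside these events. The 8 slow-fiber markers, all detected, summed to 1725 to 2102 TPM in the ground gastrocnemius and 1058 to 1274 TPM after flight, and to 889 to 2200 and 1213 to 1671 TPM in the quadriceps. The ground quadriceps library of M02 stood apart, with the lowest slow-fiber sum (889 TPM against 2167 and 2200 TPM in the other ground libraries) and the highest adipocyte sum of its group, and without it the flight effect on the Neb level in that muscle was 0.097 on the log2 scale. The 7 fast-fiber markers summed to 55974 to 57487 and 60615 to 63285 TPM in the gastrocnemius, and to 75232 to 79412 and 81949 to 85799 TPM in the quadriceps. Fast-fiber sums were thus higher after flight in both muscles and higher in the quadriceps than in the gastrocnemius, but not every member followed. Myh4, the fast myosin of type IIB fibers, had log2 differences of 0.17 and 0.21 with flight in the gastrocnemius and the quadriceps, whereas Myh2, the myosin of type IIA fibers, had −0.34 and −0.36, and Myh1, that of type IIX fibers, 0.042 and −0.051 (none with a limma adjusted p under 0.05). The 5 adipocyte markers summed to 280 to 501 TPM in the ground quadriceps and 182 to 244 TPM after flight, and to 158 to 209 and 163 to 193 TPM in the gastrocnemius. The 4 Schwann cell markers, all detected, summed to 139 to 211 and 170 to 305 TPM in the ground and flight gastrocnemius and to 52.7 to 82.5 and 56.6 to 82.7 TPM in the quadriceps, with no overlap between the muscles. The part of fiber or cell composition in the Neb events was not tested.

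The level of Neb was high in all libraries, at rank 32 to 35 among all genes by TPM. It was 3685, 3667 and 3789 TPM in the ground gastrocnemius of M02, M03 and M08, and 4656, 4257 and 4551 TPM in the flight gastrocnemius of M11, M12 and M20. In the quadriceps it was 4645, 5063 and 5058 TPM on the ground and 5277, 5611 and 5353 TPM after flight, in the same order of mice. In order of level the groups were ground gastrocnemius (3713 ± 66 TPM), flight gastrocnemius (4488 ± 207), ground quadriceps (4922 ± 240) and flight quadriceps (5413 ± 175; SD, n = 3). Samples of neighbouring groups overlapped only between the flight gastrocnemius and the ground quadriceps.

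**Figure D5:**
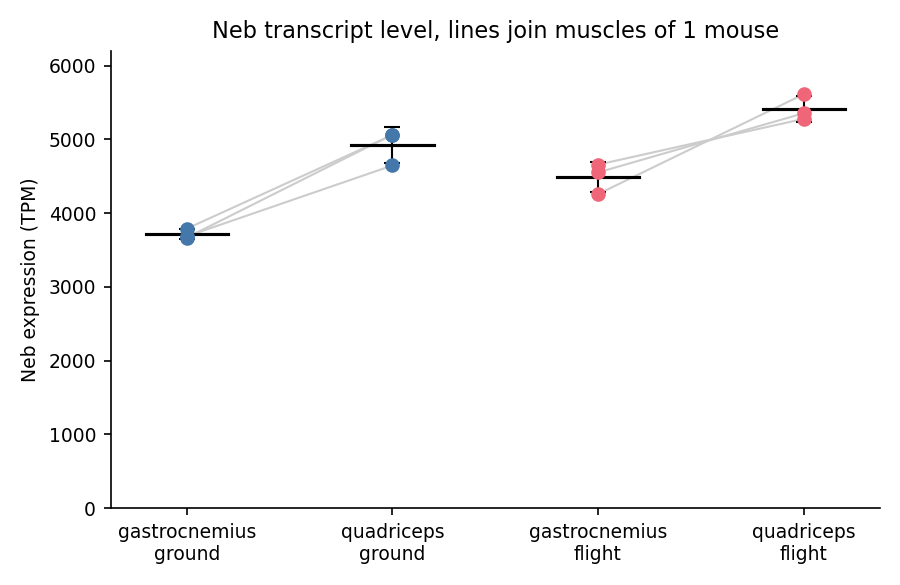
Neb level in TPM in each library; points are libraries, black bars the mean and SD of 3, and grey lines join the 2 muscles of a mouse. Flight libraries lie above the ground libraries of their muscle, and each mouse has more Neb in the quadriceps than in the gastrocnemius.

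Every flight library had more Neb than every ground library of its muscle, which was so for 12.5% of 10481 genes in the calf muscle, 9.24% in the thigh muscle and 3.06% in both. The differences were small, 1.21-fold in the gastrocnemius (log2 change 0.27 ± 0.065 SE, limma adjusted p = 0.156) and 1.10-fold in the quadriceps (0.14 ± 0.068, limma adjusted p = 0.509), and neither passed the threshold of 1.5-fold and an adjusted p of 0.05. The flight effect was not shown to differ between the muscles (log2 difference −0.13 ± 0.084, limma adjusted p = 0.999). Changes are on the log2(TPM + 1) scale, on which the median of all genes moved by 0.019 and 0.012 with flight.

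Neb was higher in the quadriceps than in the gastrocnemius of all 6 mice, by 1.13-fold to 1.38-fold. On the ground the difference was 1.32-fold (log2 0.41 ± 0.059 SE, limma adjusted p = 0.00328), and after flight 1.21-fold (log2 0.27 ± 0.059 SE, limma adjusted p = 0.0147). The median of all genes was itself shifted by 0.12 on the ground and 0.11 after flight on the log2 scale. Without M03 the ground difference had an adjusted p of 0.0661 (log2 0.38). Rescaling by median ratios gave 0.15 after flight (adjusted p = 0.206), and without M12 or M20 the adjusted p was 0.122 or 0.0787. Neither difference reached 1.5-fold.

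Of 35 genes that build, cap, cross-link or turn over the thin filament and Z-disc, 34 passed the filter, Nebl with group means of 0.776 to 1.31 TPM being the exception. With flight, 0 were called in either muscle by limma, where 0.229% of all genes were called in the gastrocnemius, and 0.0286% of them in the quadriceps. At an adjusted p under 0.05 alone the count was also 0 in each. Their median log2 change was −0.057 in the gastrocnemius and 0.11 in the quadriceps, against 0.019 and 0.012 over all genes. With 1 library left out the median ran from −0.094 to 0.0091 in the gastrocnemius, above 0 without the ground library of M02 (0.0091) or the flight library of M12 (0.0046), and from 0.050 to 0.15 in the quadriceps. Leaving out the flight gastrocnemius library of M11 gave 1 call, where 1.27% of all genes were called.

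Of the filament proteins that nebulin lies against, Tpm1, the fast tropomyosin that winds along the thin filament, had means of 12037, 14097, 16588 and 19395 TPM in the ground and flight gastrocnemius and the ground and flight quadriceps. Acta1, the skeletal actin that nebulin binds, had 19189, 17117, 19230 and 17929 TPM in the same order. Between the muscles on the ground, 3 of the 34 were called. Capza2, a subunit of the capping protein at the barbed end, was higher in the quadriceps (log2 0.60, limma adjusted p = 0.0205). Lmod2, a leiomodin of the pointed end, and Actn2, an actin cross-linker of the Z-disc, were lower (log2 −0.62 and −0.63, limma adjusted p = 0.0246 and 0.0152). After flight Actc1, the cardiac actin, and Lmod3, the other leiomodin of skeletal muscle, were called higher in the quadriceps (log2 1.24 and 0.60, limma adjusted p = 0.0160 and 0.0102) and Lmod2 lower (log2 −0.64, adjusted p = 0.0170). Without M02, M03 or M08 none of the 34 was called on the ground (0.945%, 0.2% and 1.06% of all genes), and without M20 none was called after flight (1.6%). After rescaling by median ratios, 0 were called higher and 2 lower on the ground, and 1 higher and 2 lower after flight (173 and 216 of all 10481 genes). With no filter on low values, 1 was called lower on the ground and 1 higher after flight (165 and 262 of all 25742 genes). With the mouse as a block, 2 were called higher and 2 lower on the ground, and 2 higher and 1 lower after flight. In those block fits 335 and 350 of 10481 genes were called. Of all genes, 2.6% were called between the muscles on the ground and 3.05% after flight.

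The genes whose levels ran closest to that of Neb over the 12 libraries, by Pearson's r of log2 levels, were Trdn (0.981), Sept11 (0.977), Tpm1 (0.973), Dnajc7 (0.971) and Serbp1 (0.964). The 12 points are 4 groups from 6 mice, and how much of the likeness comes from the order of the groups was not tested. Trdn, which encodes triadin of the calcium release complex, had mean levels of 1267, 1576, 1896 and 2241 TPM in the ground and flight gastrocnemius and the ground and flight quadriceps. All 5 genes had the same order of group means as Neb.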

How the data were processed

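The 12 polyA libraries, sequenced as single-end reads of 50 bases, were analysed from the authors' deposited tables. The authors aligned reads to mm10 with STAR 2.7.1a and counted junctions with rMATS-turbo, and the deposited splicing tables hold whole junction reads and effective lengths per form, with unnamed samples. The deposited expression values are TPM (kallisto 0.46.0, summed per gene by the authors). The authors' own PSI values in 8 columns of sample values, p-values, FDR and PSI differences were not used.

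PSI was recomputed from reads and lengths. Events were kept with over 10 mean junction reads in each group and PSI not all at or under 0.05 or at or over 0.95. The reads are deposited as lists, which were split by sample. The edgeR test that had been planned was not run. In its place a quasi-binomial model was fitted to every event of a muscle in R 4.3.3, with dispersions moderated by limma 3.58.1 (trend on reads, not below binomial), adjusted by Benjamini-Hochberg over all kept SE and MXE events, two-sided. The comparison between muscles used the events kept in both. TPM was tested with limma on log2(TPM + 1) over 10481 genes above 5 TPM in at least 1 library, called at an adjusted p under 0.05 and over 1.5-fold. The scripts were tested on simulated data, in which both splicing models recovered only a small part of the changes put in, so an event that was not called is not shown to be unchanged. No value of 1 gene was given a permutation test, since 3 against 3 samples cannot give a p under 0.1.

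Exon numbers and sequences came from GENCODE vM21 on GRCm38, the assembly of mm10. Events named were those called, the pairs 123/123a and 127/128, and the 5 widest non-overlapping changes per muscle; exons 3, 30, 138, 140 and 150 and the single junctions were chosen after their values were seen. Partner genes and markers were listed by name. The members and lists were chosen with earlier results of these data known. In the expression table the labels give each library's mouse, and same-mouse deviations from the group means correlated across genes with r of 0.0943, 0.0142, 0.163, 0.333, 0.179 and −0.119 for M02, M03, M08, M11, M12 and M20. The labels give separate mice, so replicate error is between animals. Alternatives are given in the closing section.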

Additional observations from a re-analysis of the deposited data

How the results depend on the processing

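The counts of called Neb events depended on the model and on single samples. In the gastrocnemius, limma called 1 Neb event with or without weights by reads, against 9, and in the quadriceps 0 and 0, against 8. Of all events, limma called 8 and, weighted, 9 of 2118 in the gastrocnemius, and 0 and 0 of 2062 in the quadriceps. Between muscles limma called 6 and, weighted, 6 on the ground (against 11), and 4 and 5 after flight (against 18). Of all 1858 events, these fits called 120 and 108 on the ground, and 103 and 111 after flight. With SE and MXE events adjusted separately, 1 Neb event was called for a difference in the flight effect, against 0 (8 of all 1858 events, against 6). Leaving out 1 listed sample gave 0 to 10 calls in the gastrocnemius, 0 to 5 in the quadriceps, 0 to 5 for the difference in the flight effect, 5 to 12 between muscles on the ground and 5 to 21 after flight. In the same order, the calls over all events ran from 9 to 33, 0 to 7, 3 to 14, 103 to 141 and 106 to 162. The fits without 1 sample hold fewer samples, and the cause of these changes was not tested. A limit of over 20 reads, no filter, a threshold of 10 points and a dispersion not held at the binomial level, the last chosen after seeing the data, kept each count within 1.5 times, but at 10 points 2 gastrocnemius events were called higher, against 4, as the pairs 120/121 and 123/123a changed by less. Over the events called with flight, leaving out a sample ended the call in 81 fits and kept it in 21, the other settings, apart from the threshold of 10 points, ended it in 33 and kept it in 69, and no direction reversed.

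For the Neb level, leaving out 1 library or mouse gave log2 changes of 0.25 to 0.31 (flight, gastrocnemius), 0.097 to 0.16 (flight, quadriceps), −0.20 to −0.089 (difference between muscles in the flight effect), 0.38 to 0.44 (muscles, ground) and 0.21 to 0.32 (muscles, after flight). The last fell short of significance with no filter (0.27, adjusted p = 0.0985), median-ratio rescaling (0.15, 0.206) and limma without a trend (0.27, 0.0504). Between the muscles, the replicate block was the mouse and changed no call for the Neb level (after flight, adjusted p = 0.0309). For flight against ground it could be only the label number, which different mice share, and Neb was not called with it either (adjusted p = 0.349 in the gastrocnemius and 0.679 in the quadriceps). No paired analysis was possible for the splicing events because their samples are unnamed. The DESeq2 alternative planned for the events was not run. Counting error is largest for events of the C-terminal chain with few reads, such as exon 147c (77.5 reads per sample), and how much of the spread between samples it makes up was not tested.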
